A study of Mus musculus with 16 samples.

Results

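The genes described here encode subunits of the ion pumps that exchange potassium for protons or sodium across kidney cell membranes. They are 7 genes of the 28971 in the count table used: Atp12a and Atp4a, Atp1b1 and Atp1b3, and Fxyd2, Fxyd4 and Fxyd5. They were picked by name, with the difference between Hes1 cKO and control kidneys in this table already known. Their differences in that comparison are therefore given as a description and not as a test. RNA from whole kidneys was read in 2 groups. The Hes1 cKO genotype is Pax8-rtTA together with TRE-Cre on a Hes1 f/f background, in which doxycycline turns on Cre recombinase where the Pax8 promoter is active, the tubule epithelium included. The controls were littermates labelled wild type, and their alleles are not described further. Mice of both groups drank doxycycline at 1 mg/mL with 5% sucrose for 1 week from 3 weeks of age. The table holds 3 Hes1 cKO and 4 control libraries with 16973931 to 20420422 counts each, and the numbers that follow a group name below only name columns.

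Na,K-ATPase is the sodium pump of the basolateral membrane. Its alpha subunit binds the ions and ATP, its beta subunit brings the complex to the membrane, and a small FXYD protein tunes its affinity for ions. H,K-ATPases are built on the same plan and secrete protons while taking up potassium. Atp12a encodes the alpha subunit of the non-gastric H,K-ATPase, a pump of the collecting duct and the distal colon that is known for its induction when potassium is scarce. Atp4a encodes the alpha subunit of the gastric H,K-ATPase, which acidifies the stomach and is also found in intercalated cells, the acid and base transporting cells of the collecting duct.

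Atp12a and Atp4a encode related proteins, and how alike the genes are bears on whether their reads can be kept apart. Over the aligned coding sequences (longest coding transcript of each gene, GENCODE M21, GRCm38) they were identical at 66.1% of the bases. No run of 31 bases of an Atp12a transcript recurred in a transcript of Atp4a, and the longest shared run was 17 bases. Reads of the libraries were 150 bases long.

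The FXYD genes are named for a run of amino acids beside the membrane. The motif named PFXYD was searched in frame on the coding strand of the longest coding transcript, with any codon at X and the third base of every codon left free. It was found 1 time in each coding sequence below, which are shown because they hold the part that names the family. In any frame it occurs in a transcript of 3.57% of the 21877 protein-coding genes, among them 7 Fxyd genes. Capitals mark the match in 30 bases, which span an exon junction in each gene.
Fxyd2: acagagaatCCCTTCGAGTACGACtatgaa
Fxyd4: aaagacagtCCCTTCTACTATGACtgggag
Fxyd5: gagaacaacCCCTTCTACTACGATgatact
Fxyd2 and Fxyd4 were identical at 21 of these 30 positions, and Fxyd5 matched each of the others at 17. The coding sequence is 195 bases long in Fxyd2, 300 in Fxyd4 and 558 in Fxyd5. Whole transcripts, untranslated parts included, were compared on either strand. Fxyd2 and Fxyd5 transcripts shared a run of 38 bases, and 2 of the 4154 different runs of 31 bases in Fxyd2 recurred in Fxyd5. A run of 38 bases that holds only 2 different runs of 31 is a simple repeat, so no family likeness is read from it. Fxyd6 transcripts shared 1 run of 31 bases with Fxyd2 and 1 with Fxyd5.

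Hes1 checked the group names. It was at 19.8, 17.2 and 17.5 CPM (counts per 1000000, scaled to the TMM library size) in Hes1 cKO 1, 2 and 3, and at 42.8 to 67.6 CPM in the 4 controls. Xist, a transcript of the inactive X chromosome, was high in Hes1 cKO 3, control 3 and control 4 and near 0 in the other 4 libraries. No sex was assigned to a library. Genes of steroid synthesis in the adrenal gland summed to 1082 CPM in Hes1 cKO 3, 805 CPM in control 1 and 209 CPM in control 2, and to at most 52.3 CPM in the other libraries. Kidney markers were present throughout: the 5 genes of the thick ascending limb summed to 6504 CPM or more in every library.

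The members covered a wide range of levels. Per kilobase of exon (RPKM, over all annotated exons of a gene), the control mean was 1011 ± 59.4 (SD, n = 4) for Atp1b1, the main beta subunit of the kidney, and 457 ± 38.2 for Fxyd2, the gamma subunit of the renal sodium pump. Atp1b3, a second beta subunit of many tissues, followed at 46.6 ± 1.81 RPKM. Fxyd4, at 13.3 ± 2.22 RPKM, and Atp4a, at 13.1 ± 3.70 RPKM, overlapped over the control libraries and have no order between them. Fxyd5 was at 1.30 ± 0.103 RPKM, and Atp12a was the lowest member at 0.226 ± 0.109 RPKM. In the Hes1 cKO libraries the order was the same down to Atp1b3. There Fxyd4 (6.57 to 9.83 RPKM) again overlapped Atp4a (7.50 to 14.3 RPKM). Atp12a (1.04 to 1.86 RPKM) overlapped Fxyd5 (1.01 to 1.41 RPKM), which in control it lay below in every library.

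**Figure D1:**
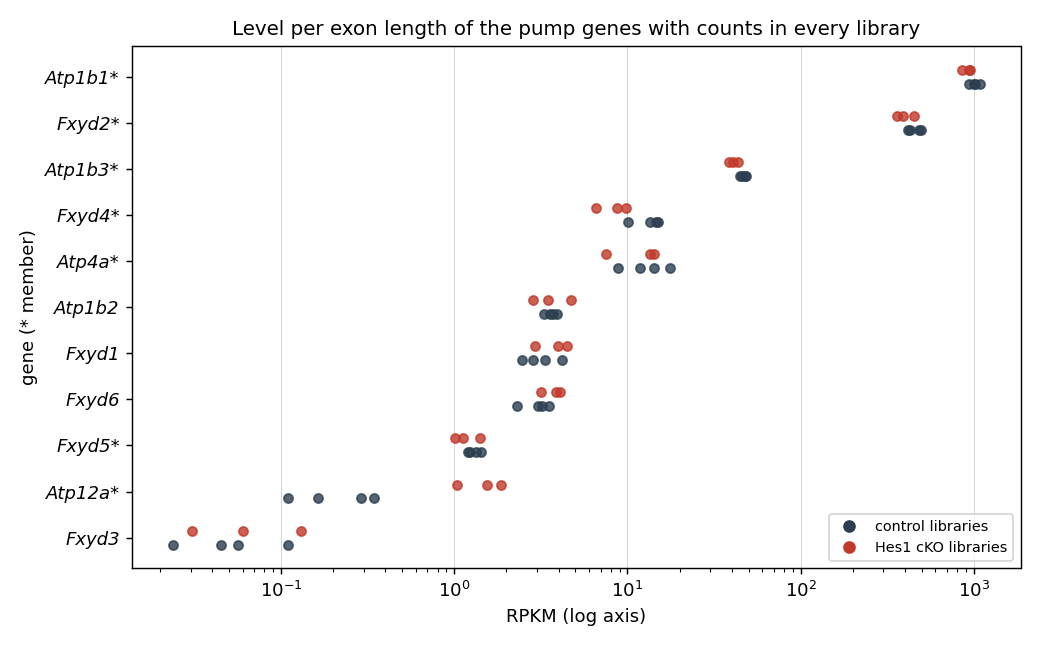
Level per exon length (RPKM, log axis) of each pump gene with counts in every library, 1 point a library, with members starred. Atp12a moves from 0.109 to 0.343 RPKM in the 4 control libraries to 1.04 to 1.86 RPKM in the 3 Hes1 cKO libraries, while the abundant subunits Atp1b1 and Fxyd2 keep their place.

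Atp12a (chr14:56365068-56388550, plus strand) was the member with the widest difference between the groups. It was at 6.24, 7.47 and 4.18 CPM in Hes1 cKO 1, 2 and 3, and at 1.38, 1.17, 0.439 and 0.655 CPM in control 1, 2, 3 and 4. Every Hes1 cKO library lay above every control, and the libraries with high Xist were the lowest of their group. The Hes1 cKO mean was 5.96 ± 1.66 CPM (SD, n = 3), and the control mean was 0.909 ± 0.436 CPM (SD, n = 4). The fitted log2 fold change was 2.71 (SE 0.37), or 6.54-fold. In whole-kidney RNA, a change in the number of cells of a type and a change in RNA per cell cannot be told apart.

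Few reads stood behind the control values. Atp12a had 24, 22, 8 and 12 counts in control 1 to 4 and 118, 151 and 71 counts in Hes1 cKO 1 to 3. The exact Poisson 95% intervals, which cover counting error only, reached from 0.882 to 2.05 CPM in control 1 and from 0.190 to 0.865 CPM in control 3. The highest control bound of 2.05 CPM lay below the lowest Hes1 cKO bound, 3.26 CPM in Hes1 cKO 3. Within the libraries with low Xist (2 Hes1 cKO, 2 control) the ratio of the means was 5.39, and within those with high Xist (1 Hes1 cKO, 2 control) it was 7.63. With the Xist class as a term in the fit, the log2 fold change was 2.61 (SE 0.24). The antisense gene Gm10873 overlaps 557 bases (13.9%) of the Atp12a exons. Reads within these bases cannot be assigned to 1 gene of the pair here, because whether counting used the strand is not known. The rest of the Atp12a exons is not shared with Gm10873.

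Of the 7 members, 1, Atp12a, had an adjusted p under 0.05 by edgeR's quasi-likelihood test over all genes (0.0167), against 0.339% of all 15615 tested genes in either direction with 0.32% higher and 0.0192% lower in Hes1 cKO. As the members were chosen with this contrast known, nothing is read from that count. The adjusted p rose past the limit without Hes1 cKO 1 (edgeR, 0.0893), without Hes1 cKO 2 (0.108) or without control 4 (0.0677). The log2 fold change was between 2.48 (without control 3) and 2.97 (without control 1) when single libraries were left out. The groups did not overlap for 3 of the 7 members (Atp12a, and on the lower side Atp1b3 and Fxyd4), against 7.01% of all tested genes, 3.71% higher and 3.29% lower.

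Atp4a (chr7:30712209-30725534, plus strand), the gastric counterpart, was at 28.2, 53.8 and 50.8 CPM in Hes1 cKO 1, 2 and 3, and at 33.2, 44.3, 66.0 and 53.4 CPM in control 1 to 4. The groups overlapped over most of their range, and the lowest library of each was the one numbered 1. The log2 fold change was -0.15 (SE 0.26), and its sign turned when Hes1 cKO 1 (0.09) or control 3 (0.02) was left out. Atp4b, which encodes the beta subunit of the gastric pump, had 6, 2 and 2 counts in the Hes1 cKO libraries and 1, 3, 0 and 0 in the controls. The exact Poisson interval for the 0 counts of control 3 reached up to 0.203 CPM. Atp4b did not pass the filter on low counts and was not tested.

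Most markers of intercalated cells were also higher in Hes1 cKO. Of the 14 listed, 10 were called higher by edgeR and none lower, against 0.32% and 0.0192% of all tested genes. Their median log2 fold change was 1.17. Fitted log2 fold changes were above 0 for 13 and below 0 for 1, Rhcg (-0.18, SE 0.15). Rhcg, Atp6v0a4 (0.17, SE 0.10) and Slc4a1 (0.41, SE 0.15) overlapped between the groups and were not called. Aqp6 (0.68, SE 0.12) was not called either. As the list was chosen with earlier results of these data known, these values are a description and support nothing. The summed level of the 14 was 2193 to 2352 CPM in Hes1 cKO and 1143 to 1341 CPM in control, and none of the 14 was without counts. For the 4 genes that mark type B cells (Slc26a4, Slc4a9, Insrr and Hmx2), the sum was 701 to 823 CPM against 171 to 261 CPM. For the 3 listed here under type A cells (Slc4a1, Kit and Aqp6) it was 289 to 308 CPM against 155 to 237 CPM. Of these 3 only Kit was called, and how far Kit is limited to type A cells was not tested. The part of these cells in the Atp12a difference was not tested. Stomach and colon are the other sites of H,K-ATPases. Of the 7 genes listed for their epithelium, Cblif, Gkn1 and Gkn2 had no count in any library. The 7 summed to 1.385 to 3.235 CPM in Hes1 cKO and to 1.319 to 3.275 CPM in control. The source of these counts was not tested.

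Atp12a was set against single markers within each library, as a description. Relative to Foxi1, the transcription factor that specifies intercalated cells, Atp12a stood at 4.68%, 6.32% and 3.87% in Hes1 cKO 1, 2 and 3, whereas control 1 to 4 had 5.20%, 2.92%, 1.34% and 2.07%. These ranges overlapped, since control 1 lay above Hes1 cKO 1 and 3. Relative to the type B sum the groups also overlapped, at 0.755% ± 0.156 for Hes1 cKO (SD, n = 3) and 0.429% ± 0.278 for control (SD, n = 4). Ratios to Hmx2, Slc4a9 and Slc26a4 overlapped too, with a Hes1 cKO mean 1.138, 1.735 and 1.977 times that of control. Relative to Atp6v1b1, a proton pump subunit of all intercalated cells, Atp12a was at 1.81% to 3.22% in Hes1 cKO and at 0.298% to 1.28% in control, with no overlap. Relative to the sum of the 14 markers Atp12a was at 0.1904% to 0.3175% in Hes1 cKO and at 0.03275% to 0.1205% in control, again with no overlap. Atp4a relative to the sum of the 14 markers was lower in every Hes1 cKO library, at 1.26% to 2.32% against 2.90% to 4.92%, a ratio in which the sum differed between the groups. Relative to Slc4a1, the chloride-bicarbonate exchanger of type A cells, Atp4a overlapped, at 20.98% to 44.7% against 32.3% to 61.7%.

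**Figure D2:**
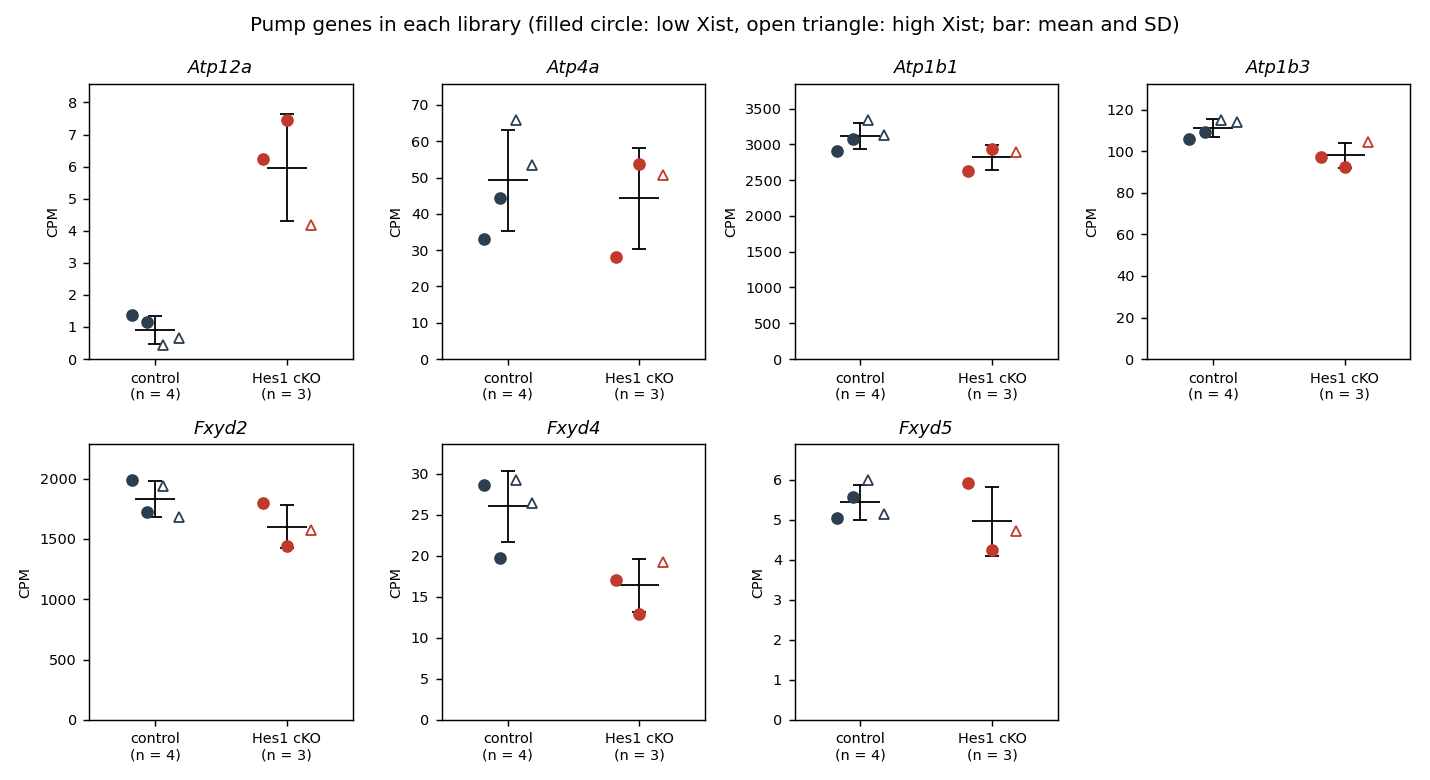
CPM in each library of the 7 members, by group, with the mean and SD as bars, filled circles for low and open triangles for high Xist. The Hes1 cKO libraries sit above all controls for Atp12a (4.18 to 7.47 CPM against 0.439 to 1.38 CPM) and below them for Atp1b3 and Fxyd4, and overlap them in the other panels.

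Both beta subunit genes had a lower mean in Hes1 cKO. Atp1b1 (chr1:164437109-164458355, minus strand) was at 2622, 2937 and 2894 CPM in Hes1 cKO 1, 2 and 3, and at 2904, 3075, 3348 and 3129.9 CPM in control 1 to 4. The ranges overlapped, because Hes1 cKO 2 lay above control 1. Its log2 fold change was -0.14 (SE 0.10). The gene shares 575 bases (18.7% of its exons) with Nme7 on the other strand, which was at 8.73 to 12.7 CPM. Atp1b3 (chr9:96332655-96364442, minus strand) was at 97.4, 92.6 and 104 CPM in Hes1 cKO 1, 2 and 3, whereas control 1 to 4 had 106, 109, 115 and 114 CPM. All 3 Hes1 cKO libraries were below all controls, by a margin of less than 2 CPM between Hes1 cKO 3 and control 1. Its log2 fold change was -0.18 (SE 0.08), the smallest standard error among the members.

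Both beta genes were also set against each other within each library. Atp1b3 stood at 3.72%, 3.15% and 3.61% of Atp1b1 counts in Hes1 cKO 1, 2 and 3, whereas control 1 to 4 had 3.66%, 3.55%, 3.45% and 3.65%. Hes1 cKO libraries were both the highest and the lowest, and the control range lay within theirs. The mean was 3.49% ± 0.300 for Hes1 cKO (SD, n = 3) and 3.58% ± 0.0994 for control (SD, n = 4). Over the coding sequences the genes were identical at 58.7% of the aligned bases, and their transcripts shared no run of over 13 bases.

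Of the 3 FXYD members, Fxyd4 had the widest difference. Fxyd4 (chr6:117933559-117937692, minus strand) encodes CHIF, a corticosteroid-induced regulator that raises the sodium affinity of the pump in the collecting duct and colon. It was at 17.03, 12.9 and 19.2 CPM in Hes1 cKO 1, 2 and 3, and at 28.6, 19.8, 29.2 and 26.5 CPM in control 1 to 4. The groups did not overlap, but control 2 lay close above Hes1 cKO 3. The Hes1 cKO mean of 16.4 ± 3.24 CPM (SD, n = 3) stood beside a control mean of 26.0 ± 4.33 CPM (SD, n = 4). The fitted log2 fold change was -0.67 (SE 0.18). edgeR's adjusted p over all genes was 0.435. DESeq2's Wald test, which called 0.849% of all genes, gave Fxyd4 an adjusted p of 0.0363, and limma-voom gave 0.445. Of the 14 alternative fits described below, that by DESeq2's Wald test was the only 1 to call Fxyd4.

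The summed level of principal cell markers was also lower in every Hes1 cKO library, though not all of the genes were. Principal cells are the sodium and water transporting cells of the collecting duct. Of the 9 genes listed, 8 were tested. By edgeR 1 (Hsd11b2) was called lower and none higher, against 0.0192% and 0.32% of all tested genes. The median log2 fold change was -0.31. This list too was chosen with earlier results of these data known. Fitted log2 fold changes were below 0 for 6 and above 0 for 2, Gata3 (0.19, SE 0.18) and Elf5 (0.31, SE 0.26), both transcription factor genes. The sum was mostly Aqp2, which was at 399 to 737 CPM in Hes1 cKO and at 682 to 1107 CPM in control. Their summed level was 782 to 1233 CPM in Hes1 cKO and 1252 to 1897 CPM in control, and all 9 had counts in some library. Avpr2 had none in Hes1 cKO 2, Hes1 cKO 3, control 3 and control 4. Relative to the water channel gene Aqp2, Fxyd4 was at 3.50%, 3.22% and 2.61% in Hes1 cKO 1, 2 and 3, and at 3.15%, 2.90%, 2.64% and 2.59% in control 1 to 4. The groups overlapped in this ratio: the highest library was Hes1 cKO 1, and Hes1 cKO 3 lay between control 4 and control 3. Relative to the sum of the 9 markers it was 1.69% ± 0.151 for Hes1 cKO (SD, n = 3) and 1.66% ± 0.194 for control (SD, n = 4). Relative to Scnn1g, a subunit of the epithelial sodium channel, it was lower in every Hes1 cKO library, at 36.4% to 46.9% against 48.6% to 63.7%. Relative to Hsd11b2, the called marker, its mean was higher in Hes1 cKO, at 13.95% to 16.8% against 9.58% to 14.7%, with overlap. Relative to the water channel gene Aqp3 the groups overlapped too, at 11.2% to 13.4% against 12.6% to 15.4%. The part of these cells in the Fxyd4 difference was not tested.

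Fxyd2 (chr9:45399669-45410278, plus strand) lowers the sodium affinity of the pump in proximal tubule and thick ascending limb. It was at 1796, 1440.3 and 1571 CPM in Hes1 cKO 1, 2 and 3, and at 1987, 1723, 1937 and 1678.5 CPM in control 1 to 4. Hes1 cKO 1 lay above 2 of the controls, and the log2 fold change was -0.19 (SE 0.11). Fxyd5 (chr7:31032722-31042481, minus strand) encodes dysadherin, which also affects cell adhesion. It stood at 5.92, 4.25 and 4.71 CPM in Hes1 cKO 1, 2 and 3, whereas control 1 to 4 had 5.05, 5.56, 5.98 and 5.13 CPM. The Hes1 cKO range took in most of the control range, and the log2 fold change was -0.13 (SE 0.17).

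**Figure D3:**
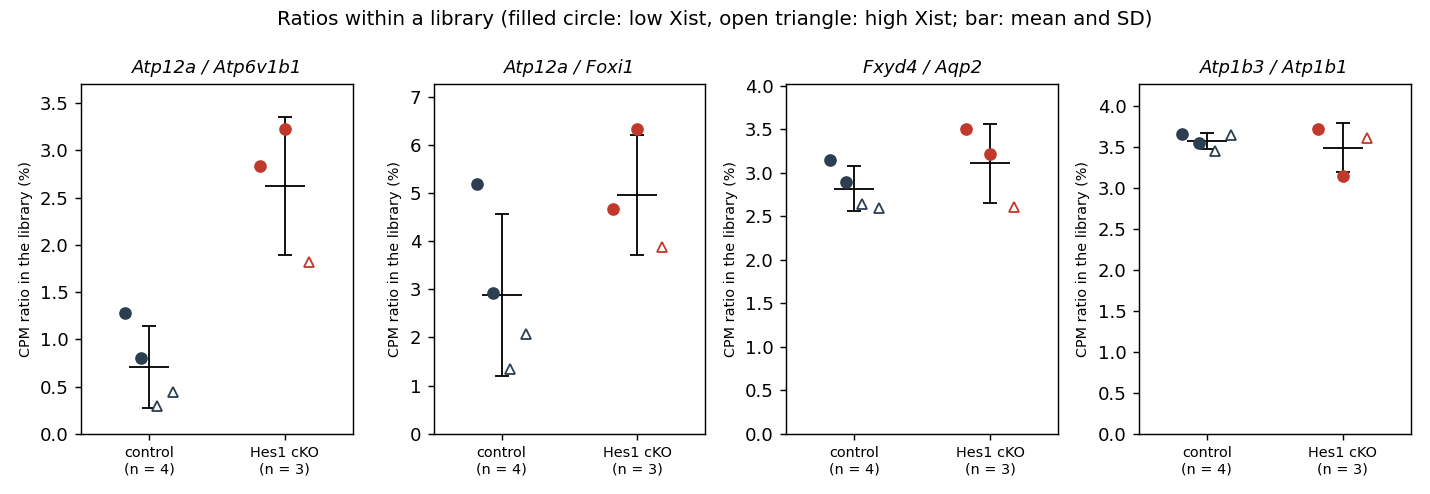
Ratio of 2 genes' CPM within each library, in percent, by group, with the mean and SD as bars and symbols as for the levels. Atp12a relative to Atp6v1b1 separates the groups (1.81% to 3.22% against 0.298% to 1.28%), whereas Atp12a relative to Foxi1 and Fxyd4 relative to Aqp2 overlap, as does Atp1b3 relative to Atp1b1 (3.15% to 3.72% against 3.45% to 3.66%).

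As a whole, 6 of the 7 members had a log2 fold change below 0, as had 51.6% of all tested genes. The median of the members was -0.15, beside -0.0064 for all tested genes. The spread within a group also differed between members: the coefficient of variation over the 4 controls was 3.88% for Atp1b3 and 5.88% for Atp1b1, against 28.3% for Atp4a and 47.9% for Atp12a. Counting error is part of this spread and is larger for Atp12a, with 8 to 24 counts in a control library, than for Atp1b1, with 50620 or more.

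A list of 7 other beta subunit and FXYD genes was tested in the same fit. Of the 3 that passed the filter on low counts, edgeR called 0, with 0 at an unadjusted p under 0.05, a limit that 5.95% of all tested genes passed. DESeq2 and limma-voom, which called 0.849% and 0.327% of all genes, also called 0 of the 3. They were Atp1b2, Fxyd1 and Fxyd6, with log2 fold changes of 0.02, 0.24 and 0.29 and adjusted p-values by edgeR of 0.927 or more. Atp1b2, a beta subunit known from glia, was at 11.6 to 19.4 CPM in Hes1 cKO and at 13.5 to 16.0 CPM in control. Fxyd1, or phospholemman, a pump regulator of muscle, was at 6.41 to 9.74 CPM in Hes1 cKO and at 5.35 to 9.16 CPM in control. Fxyd6, the neighbour of Fxyd2 on chromosome 9, was at 13.1 to 16.7 CPM in Hes1 cKO and at 9.44 to 14.5 CPM in control. Atp1b4 (at most 2 counts in a library), Fxyd3 (2 to 12 counts), Atp4b and Fxyd7 had too few counts to be tested.

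**Figure D4:**
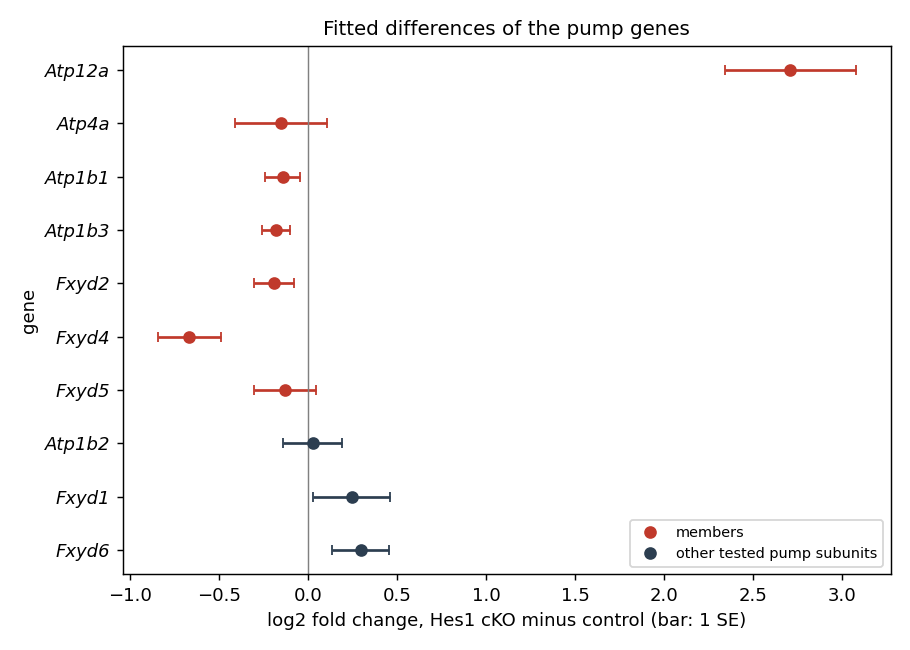
Fitted log2 fold change, Hes1 cKO minus control, with 1 SE, for the 7 members and the 3 other pump subunit genes that were tested. Atp12a stands at 2.71 and Fxyd4 at -0.67, while the others lie between -0.19 and 0.29.

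Partners and regulators of the pumps were examined next. Of 12 genes listed, 10 were tested. Of these, edgeR, DESeq2 and limma-voom called 0, against 0.339%, 0.849% and 0.327% of all genes. By edgeR 0 of the 10 had an unadjusted p under 0.05, against 5.95% of all tested genes. In so short a list 0 calls lies near those shares. Sgk1, an aldosterone-induced kinase that raises pump and channel abundance, was at 76.6 to 131 CPM in Hes1 cKO and at 90.1 to 161 CPM in control (log2 fold change -0.34, SE 0.22). Nr3c2, the mineralocorticoid receptor, had a log2 fold change of -0.09 (SE 0.14). Nr3c2 ranged from 20.2 to 27.1 CPM in Hes1 cKO and from 21.2 to 29.0 CPM in control. Of the ankyrin and spectrin genes, whose family anchors membrane proteins to the cytoskeleton, Ank2 had the log2 fold change farthest from 0 among the 10 (-0.36, SE 0.19), at 11.6 to 17.9 CPM in Hes1 cKO and at 13.8 to 22.2 CPM in control. Ank3 (262 to 279 against 270 to 326 CPM) had a log2 fold change of -0.11, Sptan1 (612 to 673 against 550.1 to 624 CPM) one of 0.10 and Sptbn1 (853 to 909 against 837 to 868 CPM) one of 0.02. Sik1, a salt-inducible kinase gene, was at 104 to 169 CPM against 107 to 186 CPM, and Agrn, which encodes agrin, at 300.2 to 376 CPM against 299.9 to 379 CPM. Of the Nkain genes, whose products bind beta subunits, Nkain1 was at 14.1 to 19.9 CPM against 12.9 to 22.3 CPM and Nkain4 at 0.471 to 0.794 CPM against 0.546 to 0.918 CPM. Nkain2 and Nkain3, with at most 1 and 3 counts in a library, were not tested. Of the 31 other P-type ATPases, which move calcium, copper, lipids and other substrates, 27 were tested. edgeR called 0, with 0 at an unadjusted p under 0.05, and DESeq2 and limma-voom called 0. The shares of all genes to set beside these counts are those given above for the partners.

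The genes whose level followed Atp12a most closely over the 7 libraries were Cib2, Tdrp, Gnb4, Lrrc3 and Gse1, among 13799 genes with a mean of at least 1 CPM. Their Pearson r of log2(CPM + 1) was 0.968 to 0.984, a description of points that share the split into groups. For deviations from the group means, which leave that split out, the closest were Atp2a2, Akirin2, Atad2b, Ncoa5 and Nol4l, with r of 0.990 to 0.994. These are the highest of 13799 values over 7 libraries, with Atp12a at 8 to 24 counts in the controls. No link between the genes is read from them. Atp2a2 encodes a calcium pump of the endoplasmic reticulum and had a log2 fold change of -0.09 between the groups. For Fxyd4 the closest were Acot13, Tuba4a, Tpp1, Nmnat3 and Top3b, with r of 0.975 to 0.982.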

How the data were processed

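The authors deposited whole-number read counts per gene with no normalization, in 2 tables. FastQC, STAR, DESeq2, mm10 and GRCm38 are named in the submitters' processing notes, with no role; for the counting program, its annotation and strand no name was found in the labels or headers. The table used has 3 columns with a mutant and 4 with a wild type prefix, and none can be tied to 1 of the 7 Hes1 cKO and 9 control titles (the series text gives these 2 numbers the other way round). The other table's 9 columns of per-sample values name no genotype and were not used.

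Genes were kept by filterByExpr (minimum count 10; 15615 of 28971), scaled by TMM and tested by edgeR's quasi-likelihood test (version 4.0.16, R 4.3.3) without covariates, with Benjamini-Hochberg adjustment over all tested genes; a gene is called at an adjusted p under 0.05. limma was version 3.58.1 and DESeq2 1.42.0. The fit was tested on simulated data. Values are CPM over the TMM library size; RPKM divides them by the union of a gene's exons in GENCODE M21 (GRCm38), which also gave coordinates and transcripts. Nothing says that libraries are separate animals beyond their titles, so p-values measure the spread between these samples. No 2 libraries were identical.

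Members and lists were chosen with earlier results of these data known. The genes named are Hes1, the 7 members, the other subunits and the partners (values in full for called genes and Atp4b, ranges for the rest), called P-type ATPases, and for Atp12a and Fxyd4 the 5 genes with the highest r. The ratios, Gata3 and Elf5 were picked after their values were seen. Some genes of this family are not reported here.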

Additional observations from a re-analysis of the deposited data

How the results depend on the processing

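Of the alternatives, 14 were fitted, 7 of them leaving out 1 library each. No paired analysis was possible because the columns carry no replicate number of the titled samples. Over all genes edgeR called 53; DESeq2's Wald test called 130, edgeR without a low-count filter 102, and fits without 1 library 25 (without Hes1 cKO 2) to 47 (without control 2). Of the members edgeR called 1, DESeq2 2 (Atp12a and Fxyd4), and fits without 1 library 0 to 1. Atp12a was higher in all 14 and called in 11, with log2 fold changes of 2.48 to 2.97. Atp1b1, Atp1b3, Fxyd2, Fxyd4 and Fxyd5 were lower in all 14. When 1 library was left out, log2 fold changes turned sign for Atp4a (-0.32 to 0.087), Atp1b2 (-0.20 to 0.18), Sik1 (-0.22 to 0.10), Sptbn1 (-0.0062 to 0.0378), Agrn (-0.0589 to 0.10) and Nr3c2 (-0.18 to 0.0177). With the Xist class as a term, Atp1b2 was at -0.0351, Sik1 at 0.0692 and Agrn at -0.0034. The causes were not tested. Counts of 8 to 24 limit the control level of Atp12a.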

Other observations

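The calcium pump gene Atp2b3 varied between libraries. It was at 0.423, 0.148 and 1.59 CPM in Hes1 cKO 1, 2 and 3, and at 2.12, 0.477, 0.110 and 0 CPM in control 1 to 4. The 3 libraries with the highest values were those with the highest summed level of the 6 adrenal genes, at 1082 CPM (Hes1 cKO 3), 805 CPM (control 1) and 209 CPM (control 2). Few reads stood behind this order: Atp2b3 had 27 counts in Hes1 cKO 3 and 37 in control 1. Control 2, with 9 counts, was hardly apart from Hes1 cKO 1, with 8 counts and an adrenal sum of 52.3 CPM. The part of adrenal tissue in these values was not tested. Atp2b3 did not pass the filter on low counts and was picked out after its values were seen.

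Fxyd7, a regulator of the pump known from the brain, had 0, 0 and 2 counts in Hes1 cKO 1, 2 and 3, and 3, 4, 4 and 3 counts in control 1 to 4. It lay under the filter on low counts and was picked out after its values were seen.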
